A study of Mus musculus with 2 samples.

Results

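Protein kinase C (PKC) is a family of serine and threonine kinases encoded by separate genes, and 7 of these genes are described here in mouse hippocampus: Prkca, Prkcb, Prkcd, Prkce, Prkch, Prkci and Prkcz. Members were taken by gene symbol from all transcript models assigned to annotated genes. The 7 genes stand among 18497 annotated genes with at least 1 read. They held 919 reads in 101 transcript models in replicate 1 and 932 reads in 102 models in replicate 2, of 135738 and 130247 models in all.

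The data are long-read RNA sequencing, in which a single read can cover a whole cDNA copy of a transcript. Total RNA came from hippocampus (labelled as a layer of it) of 2-month-old female mice of strain B6CASTF1/J, the F1 hybrid of the C57BL/6J and CAST/EiJ strains. Its 2 libraries form 1 group, are labelled biological replicate 1 and biological replicate 2, and were each begun from 2 µg of RNA with spike-in RNAs added. No transgene, deletion or treatment is named. Both replicates carry the same donor identifier but differ in a sample number, and whether they are separate animals is not stated. Each p-value compares these libraries with each other, covers counting error only, and a difference between them may be technical.

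Replicate 1 held 836240 reads and replicate 2 held 752291, of which 9644 and 6799 lay on spike-ins. Levels are given in CPM, a gene's share of all reads outside the spike-ins, per 1000000. At these depths 1 read came to 1.21 CPM (replicate 1) and 1.34 CPM (replicate 2), and a gene with no read could have stood at up to 3.63 and 4.02 CPM. Each long read counts once, so CPM is not scaled to length, and no measure of recovery by length was made. All 10 markers of hippocampal neurons had reads in both libraries and 9 of them reached 100 CPM, led by Hpca at 2219 and 2164 CPM, Slc17a7 at 1205 and 1182, Pcp4 at 277 and 294 and Wfs1 at 242 and 266 CPM. The libraries are of bulk tissue, so fewer cells of a type and less RNA per cell cannot be told apart.

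PKC enzymes fall into subfamilies by what switches them on. Conventional forms (Prkca, Prkcb) need calcium and the membrane lipid diacylglycerol. Diacylglycerol-only forms (Prkcd, Prkce, Prkch) need the lipid without calcium, and atypical forms (Prkci, Prkcz) need neither and work through protein partners. In brain, Prkcz is also known for PKM-zeta, a shorter protein made from an internal start that lacks the inhibitory regulatory part, is active without second messengers and has been studied in long-term potentiation and memory.

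Prkcb, through its beta II form, was the most abundant of the 7 genes, and most full-splice Prkcz reads began at the internal PKM-zeta start of Prkcz-202, with none seen at the full-length start. Prkcb averaged 602 ± 84.4 CPM, Prkce 191 ± 27.4, Prkcz 165 ± 1.27, Prkca 116 ± 19.4, Prkci 67.2 ± 5.89, Prkcd 32.8 ± 10.5 and Prkch 6.98 ± 0.390 CPM (SD, n = 2 libraries each). Prkcz full-length starts had 0 of 101 full-splice reads in replicate 1 and 0 of 106 in replicate 2. Full-splice reads are those of models that match a whole annotated chain of introns or carry an unannotated one. Whether an unannotated chain is whole was not tested.

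Prkcz (ENSMUSG00000029053.16, the zeta isozyme) lies on the minus strand of mm10 at chr4:155260129-155361361. The full-length transcript Prkcz-201 encodes 592 residues. Prkcz-202 begins 15589 bases further downstream, inside the gene, with a first exon of its own of 323 bases at chr4:155345450-155345772. Its coding sequence of 1227 bases is identical to the 3′ end of the 1776 coding bases of Prkcz-201, and it encodes 409 residues. The PKM-zeta start codon, at chr4:155294267-155294269, is the codon of methionine 184 of the full-length protein, so that 183 residues are missing. The coding bases around this codon are shown because the annotation begins translation of Prkcz-202 there. They are those of the full-length GENCODE M21 transcript, with the start codon in capitals.
Prkcz coding sequence around the PKM-zeta start codon: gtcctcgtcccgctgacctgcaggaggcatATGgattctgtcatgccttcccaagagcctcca

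Promoter windows are shown for the 2 kinds of start because reads were found at only one of them. Each runs from 250 bases before to 50 bases after the start in RefSeq (GRCm38.p6), on the transcribed strand, and spans chr4:155361379-155361678 for the full-length start and chr4:155345740-155346039 for the internal start. The RefSeq starts lie 67 and 17 bases upstream of the GENCODE starts of Prkcz-201 and Prkcz-202. Capitals mark matches, on either strand, to 3 motifs: TGACGTCA, the cyclic AMP response element, the CCAAT box, which these windows hold on the opposite strand, and the GC box GGGCGG, likewise. None of the marked matches overlaps another.
Prkcz full-length start: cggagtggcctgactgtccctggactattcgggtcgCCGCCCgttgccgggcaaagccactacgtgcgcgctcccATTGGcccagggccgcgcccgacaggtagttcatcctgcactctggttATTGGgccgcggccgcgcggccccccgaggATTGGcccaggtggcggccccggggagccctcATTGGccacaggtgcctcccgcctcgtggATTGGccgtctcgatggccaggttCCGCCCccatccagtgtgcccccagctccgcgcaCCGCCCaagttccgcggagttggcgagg
Prkcz internal start: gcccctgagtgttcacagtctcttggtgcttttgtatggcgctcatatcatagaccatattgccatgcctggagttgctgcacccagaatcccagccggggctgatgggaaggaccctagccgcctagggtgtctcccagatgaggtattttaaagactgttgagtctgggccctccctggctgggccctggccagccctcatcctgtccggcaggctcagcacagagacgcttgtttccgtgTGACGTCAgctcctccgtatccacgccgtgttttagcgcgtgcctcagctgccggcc

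The full-length window held 5 CCAAT matches and 3 GC boxes, with 71.0% G and C and 31 CpG sites. The internal window held neither of these motifs, with 59.3% G and C and 13 CpG sites, and its single TGACGTCA began 7 bases before the RefSeq start. Among 32851 RefSeq promoter windows of mouse of the same length, 1.79% held TGACGTCA, 37.4% CCAAT and 35.7% GGGCGG, and the medians were 52.7% G and C and 7 CpG sites. TGACGTCA was in none of the other 7 windows listed for members, which cover Prkca, Prkcb, Prkcd, Prkci and the other starts of Prkcz. A match is a run of letters, and binding was not measured.

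Internal starts, those of Prkcz-202, Prkcz-204 and Prkcz-206, held 97 of 101 full-splice Prkcz reads in replicate 1, or 96.0% (exact 95% Clopper-Pearson interval 90.2 to 98.9%), and 103 of 106 in replicate 2, or 97.2% (91.9 to 99.4%). The mean was 96.6 ± 0.799% (SD, n = 2), and no difference between the libraries was detected by Fisher's exact test (two-sided p = 0.716). The remaining 4 and 3 reads, in 6 models, began at neither kind of start, and 1 of them in replicate 2 matched the annotated 4-exon Prkcz-209. For the full-length start, a count of 0 allows a share of up to 3.59% and 3.42% of full-splice reads by the exact 95% interval. Taken as 3 counts, the limit is 2.97% and 2.83%. None of the 136 and 124 Prkcz reads of any class crossed the 4 upstream introns of the full-length transcript. None was in a model that reached upstream of the Prkcz-202 start, though the end of a model need not be that of each read. The 13 and 9 incomplete spliced reads held no first intron of either kind of start, so they cannot tell the 2 kinds apart.

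Of the annotated internal first exons, that of Prkcz-202, the PKM-zeta transcript, carried most of the reads. It had 92 reads in each library, 91.1% of full-splice reads in replicate 1 and 86.8% in replicate 2. The first exon of Prkcz-206, of 483 bases at chr4:155344683-155345165, had 3 reads (2.97%) and 8 reads (7.55%), and that of Prkcz-204, of 232 bases at chr4:155345151-155345382, had 2 and 3 reads. For the share of the Prkcz-206 exon, Fisher's exact test between libraries gave p = 0.215.

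**Figure D1:**
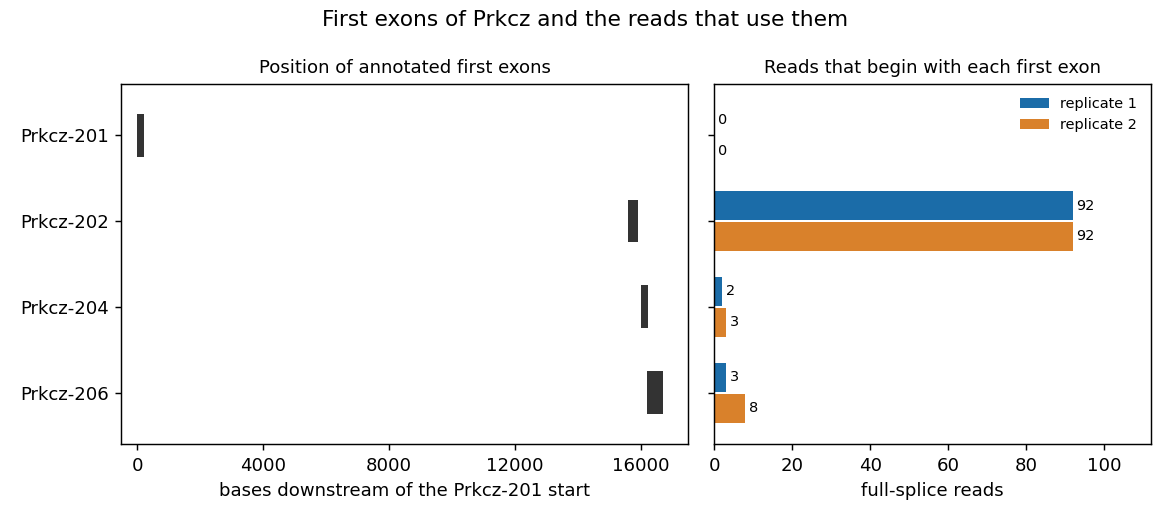
Left, annotated first exons of Prkcz drawn to scale by their distance in bases from the start of the full-length transcript Prkcz-201. Right, full-splice reads that begin with each exon in replicates 1 and 2, with 92 in each library at Prkcz-202 and 0 at the full-length exon.

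All 3 and 8 reads with the Prkcz-206 exon joined it to the 14 later exons of Prkcz-202, giving a chain of 15 exons that GENCODE M21 does not list. It was seen in both libraries. Prkcz-206 has an annotated start codon in that first exon. The frame from that codon to the PKM-zeta start codon ran 225 bases (75 residues) with 0 stop codons, so this chain could be read as 484 residues in place of the 409 of PKM-zeta. Whether such a protein is made was not measured. The Prkcz-204 exon was joined to the same 14 exons in 1 and 2 reads.

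Prkcz as a gene had 136 reads (165 CPM) in replicate 1 and 124 reads (166 CPM) in replicate 2. Those levels overlap within counting error, and the exact binomial test gave p = 0.951. At least 1 of the 13 introns shared by Prkcz-201 and Prkcz-202 was crossed by 114 and 115 of its reads. Genomic models, which follow no annotated splicing, held 21 Prkcz reads (15.4%) in replicate 1 and 9 (7.26%) in replicate 2. Over all annotated genes they held 10.5% and 10.3%. Single-exon Prkcz reads inside the last exon of 2403 bases numbered 21 and 7, of which 20 and 7 were in models under 50 bases. The first junction of Prkcz-202 had 92 reads against 114 on the last in replicate 1, and 92 against 115 in replicate 2, or 80.7% and 80.0%. Reads that use another internal first exon do not cross that first junction. At the second junction of Prkcz-202 the ratios were 88.6% and 92.2%. For the first junction of Prkce-202 they were 86.5% and 85.3%, and for that of Prkcb-202 97.1% and 98.5%. Prkcb reads with another last exon cross the first junction of Prkcb-202 but not its last, which raises its ratio. Its next-to-last junction had 395 and 428 reads, against 378 and 408 on the last and 367 and 402 on the first.

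**Figure D2:**
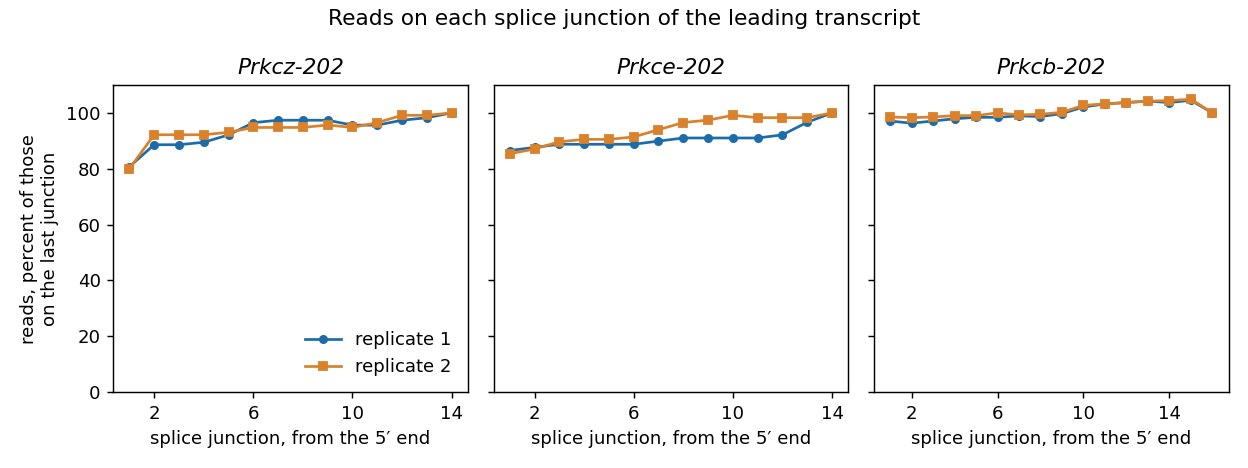
Reads on each splice junction of the leading transcripts of Prkcz, Prkce and Prkcb, as a percentage of the reads on the last junction, numbered from the 5′ end, in replicates 1 and 2. The first junction of Prkcz-202 stands at 80.7% and 80.0%, and that of Prkcb-202 at 97.1% and 98.5%. Reads with another first exon miss the first junction of Prkcz-202, and reads with another last exon miss the last of Prkcb-202. The ratios of the 2 genes are therefore not like measures of how far reads extend.

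The other atypical gene, Prkci (ENSMUSG00000037643.14, chr3:30995747-31052959, plus strand), encodes the iota isozyme, which acts with Par3 and Par6 in cell polarity. It had 59 reads (71.4 CPM) in replicate 1 and 47 reads (63.0 CPM) in replicate 2. Both lie below every Prkcz value. The 18-exon Prkci-201, of 595 residues, took 40 of 45 full-splice reads in replicate 1 (88.9%) and 33 of 37 in replicate 2 (89.2%). Genomic models held 11 of all Prkci reads in replicate 1 (18.6%) and 0 in replicate 2. Incomplete reads numbered 3 (5.1%) and 10 (21.3%). The 2 atypical genes together held 236 CPM in replicate 1 and 229 CPM in replicate 2, which was 21.2% and 18.3% of the reads of all 7 genes.

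Among the conventional genes, Prkcb (ENSMUSG00000052889.11, chr7:122288751-122634402, plus strand) encodes the beta isozyme, which is spliced to a choice of 2 last exons. It had 448 reads (542 CPM) in replicate 1 and 493 reads (661 CPM) in replicate 2. That was 48.7% and 52.9% of the reads of the 7 genes, and by mean CPM Prkcb stood 131st of the 18497 genes. Replicate 1 was the lower library, with a log2 ratio of replicate 1 to replicate 2 of -0.29. The exact binomial test gave p = 0.00239 before adjustment and 0.197 after Benjamini-Hochberg adjustment over all genes tested.

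The last exon decides the C-terminal tail of the kinase. Beta II ends in an exon of 1000 bases at chr7:122627656-122628655 (Prkcb-202, 673 residues) and beta I in one of 658 bases further downstream at chr7:122633745-122634402 (Prkcb-201, 671 residues). The 2 transcripts share all 15 inner exons. The coding parts of the last exons are shown because they are what sets the forms apart. Reads were assigned by the last intron, which leads to one exon or the other. They are from GENCODE M21 on mm10, at chr7:122627656-122627814 and chr7:122633745-122633897, with the stop codon in capitals.
Prkcb beta II last-exon coding sequence: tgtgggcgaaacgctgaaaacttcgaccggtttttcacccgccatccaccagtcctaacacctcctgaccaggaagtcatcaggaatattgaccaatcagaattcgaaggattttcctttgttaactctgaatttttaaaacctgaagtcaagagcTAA
Prkcb beta I last-exon coding sequence: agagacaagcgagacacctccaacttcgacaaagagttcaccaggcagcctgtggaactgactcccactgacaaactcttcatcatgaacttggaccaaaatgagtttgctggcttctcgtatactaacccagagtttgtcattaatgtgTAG

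The 2 tails, 159 and 153 bases with the stop codon, had 91 identical bases in 162 columns of an alignment, or 56.2%.

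Beta II held 348 of 367 multi-exon full-splice reads in replicate 1, or 94.8% (exact 95% interval 92.0 to 96.8%), and 383 of 403 in replicate 2, or 95.04% (92.4 to 96.9%). Beta I held 19 reads (5.18%) and 17 reads (4.22%). The mean share of beta II was 94.9 ± 0.152% (SD, n = 2), and Fisher's exact test between libraries gave p = 1.00. Only replicate 2 had reads with another last exon, 3 of them. Incomplete spliced reads, which begin or end inside the transcript but keep a last intron, gave 29 of 29 beta II in replicate 1 and 25 of 27 in replicate 2.

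Prkcb also had reads of 1 exon. The annotated single-exon transcript Prkcb-208, at chr7:122633448-122634402, contains the beta I last exon and had 23 reads in replicate 1 and 27 in replicate 2. Genomic models, which follow no annotated splicing, had 29 and 27 reads, of which 11 and 21 reached into the beta II last exon. Incomplete models inside the beta II last exon had 0 and 9 reads. These reads cross no intron and were left out of the beta I and beta II shares. With Prkcb-208 counted among the full-splice reads, Prkcb-202 itself took 337 of 390 (86.4%) and 375 of 430 (87.2%).

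Prkca (ENSMUSG00000050965.14, chr11:107933387-108343928, minus strand) encodes the alpha isozyme, a broadly expressed calcium-dependent form. It had 107 reads (129 CPM) in replicate 1 and 76 reads (102 CPM) in replicate 2. The exact binomial test gave p = 0.120 before adjustment. The 17-exon Prkca-201, of 8409 bases and 672 residues, took 74 of 80 full-splice reads in replicate 1 (92.5%) and 43 of 47 in replicate 2 (91.5%). Full-splice reads were 74.8% and 61.8% of all Prkca reads, and genomic models made up 24 and 27 reads (22.4% and 35.5%), against 10.5% and 10.3% over all annotated genes. Of these genomic reads, 21 and 25 lay inside the last exon of 6294 bases.

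Among the diacylglycerol-only genes, Prkce (ENSMUSG00000045038.14, chr17:86167785-86657919, plus strand) encodes the epsilon isozyme, which has been studied in neurons and in pain. It had 142 reads (172 CPM) in replicate 1 and 157 reads (211 CPM) in replicate 2. The exact binomial test gave p = 0.0823 before adjustment. The 15-exon Prkce-202, of 737 residues, took 76 of 78 full-splice reads (97.4%) in replicate 1 and 96 of 99 (97.0%) in replicate 2, and the 16-exon Prkce-201 had 0 and 1 reads. Full-splice reads made up 54.9% and 63.1% of Prkce reads, against 74.2% and 73.7% over all annotated genes. Incomplete reads of a single exon held 47 and 34 reads (33.1% and 21.7%), and all of them lay inside the last exon of 3379 bases. With incomplete reads in the denominator, the mean share of Prkce-202 was 59.5%, against 97.2% without them.

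Prkcd (ENSMUSG00000021948.17, chr14:30595354-30626210, minus strand) encodes the delta isozyme, a marker of thalamic relay neurons in mouse forebrain. It had 21 reads (25.4 CPM) in replicate 1 and 30 reads (40.2 CPM) in replicate 2, with an exact binomial p of 0.123 before adjustment. Replicate 2 was higher, and both values lie between those of Prkci and Prkch.

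The other 8 thalamus markers summed to 136 CPM in replicate 1 and 87.2 CPM in replicate 2. Of them 4 were higher in replicate 1 and 4, like Prkcd, in replicate 2. Reads were found in both libraries for 7 of the 8, and Synpo2 had none in replicate 1. Calb2, at 69.0 and 33.5 CPM, and Rora, at 33.9 and 22.8 CPM, which hippocampal cells also express, held most of the sum, and the other 6 summed to 32.7 and 30.8 CPM. Lef1 had 19.4 and 5.37 CPM. Tcf7l2, a defining factor of the thalamus, had 2.42 and 5.37 CPM, and Slc17a6, the glutamate transporter of thalamic neurons, had 4.84 and 4.02 CPM. Their part in the Prkcd level was not tested.

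Prkcd also has an alternative exon boundary. Prkcd-208 keeps an exon of 169 bases at chr14:30602659-30602827, and Prkcd-207 (674 residues) uses 91 bases of it, so that 78 coding bases are left out. The segment kept in Prkcd-208 is printed because it tells the 2 forms apart, all in capitals, from GENCODE M21 at chr14:30602659-30602736.
Prkcd segment kept in Prkcd-208 and absent from Prkcd-207: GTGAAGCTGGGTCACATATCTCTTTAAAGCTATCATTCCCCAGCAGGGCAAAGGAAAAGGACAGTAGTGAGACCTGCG

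Reads without this segment numbered 21 in replicate 1 and 27 in replicate 2, and reads with it 0 and 1. Prkcd-207 took 17 of 21 full-splice reads (81.0%) and 20 of 27 (74.1%). An unannotated chain of 17 exons had 3 reads (11.1%) in replicate 2 and none in replicate 1.

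Prkch (ENSMUSG00000021108.18, chr12:73584796-73778185, plus strand) encodes the eta isozyme, found in epithelial, endothelial and lymphoid cells. It had 6 reads (7.26 CPM) in replicate 1 and 5 reads (6.71 CPM) in replicate 2, the lowest of the 7 genes in both libraries, and too few for the library test. Of these, 5 reads in each library were Prkch-201, of 14 exons and 683 residues. Endothelial markers had reads in both libraries for 9 of 9 genes and summed to 416 CPM in replicate 1 and 342 CPM in replicate 2, led by Cldn5 at 231 and 169 CPM, Itm2a at 78.6 and 77.8, Slco1a4 at 46.0 and 37.6 and Ly6c1 at 18.1 and 16.1 CPM. Of 7 markers of microglia and lymphoid cells, 4 had reads in both libraries, all of them microglial, and the list summed to 208.1 and 244 CPM. These were Csf1r at 69.0 and 91.2 CPM, C1qa at 69.0 and 65.7, Tmem119 at 38.7 and 49.6 and P2ry12 at 29.0 and 33.5 CPM. Cd3e, a T-cell marker, had no read in either library, and Cd79a, a B-cell marker, had 0 and 3 reads. Their part in the Prkch level was not tested.

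**Figure D3:**
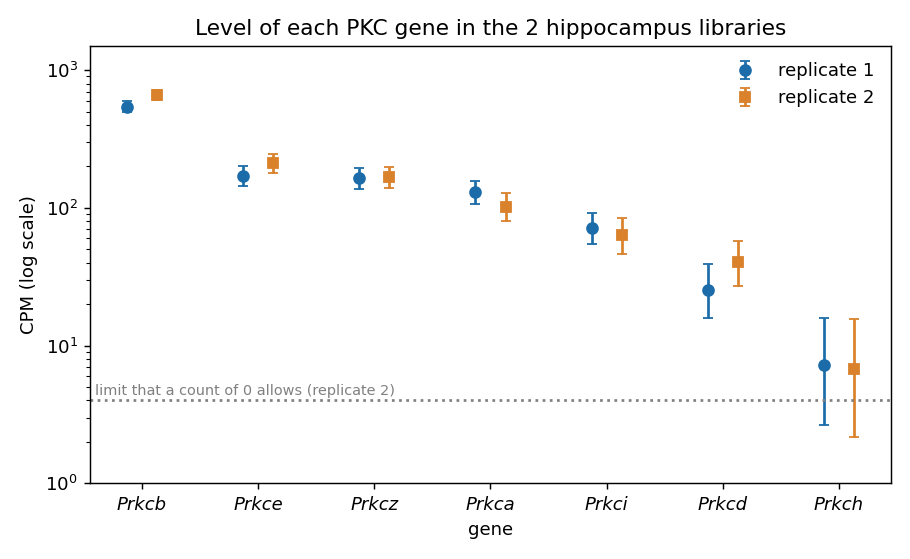
Level in CPM (log axis) of each gene in replicates 1 and 2, with exact 95% Poisson intervals that cover counting error only. The order runs from Prkcb at 542 and 661 CPM to Prkch at 7.26 and 6.71 CPM, and the points of neighbours do not overlap. Set across libraries, a gene's lowest limit against the next gene's highest, intervals of neighbours do overlap, except for Prkcb and Prkce. Intervals were not computed for the pooled reads. Compared within a library, only those of Prkce and Prkcz overlap in both replicates.

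In the order Prkcb, Prkce, Prkcz, Prkca, Prkci, Prkcd and Prkch, the lowest library of each gene was above the highest of the next. The closest pair was Prkce and Prkcz, with a lowest value of 172 CPM for Prkce and a highest of 166 CPM for Prkcz. Set across libraries, a gene's lowest limit against the next gene's highest, 95% counting intervals overlapped in every neighbouring pair but Prkcb and Prkce. Intervals were not computed for the pooled reads. Compared within a library, only those of Prkce and Prkcz overlapped in both replicates. Prkce and Prkcz alone exchanged places when full-splice reads only were counted, with means of 174 CPM for Prkce and 202.1 CPM for Prkcz. By subfamily, conventional genes held 671 and 763 CPM (60.4% and 61.1% of the reads of the 7 genes) and diacylglycerol-only genes 204.5 and 257 CPM (18.4% and 20.6%).

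Library differences were counted at an adjusted p under 0.05 (exact binomial test) with at least 2-fold change, for genes with at least 20 reads together. Of the 6 members tested 0 were called and 1, Prkcb, had an unadjusted p under 0.05, against 28 of 9062 genes called, or 0.309%. The log2 ratio of replicate 1 to replicate 2 was 0.34 for Prkca, 0.18 for Prkci, -0.02 for Prkcz, -0.29 for Prkce and -0.65 for Prkcd. For the share of the dominant isoform, Fisher's exact test called 0 of 6 members, against 10 of 4819 genes, or 0.208%. The median share was 87.9% over those 6 members and 84.3% over all genes tested (quartiles 62.4 and 94.6%).

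Unannotated splicing was spread over many models of few reads. Distinct full-splice chains numbered 23 for Prkcb, 18 for Prkcz, 11 for Prkca, 10 each for Prkcd and Prkci, 6 for Prkce and 1 for Prkch. Chains seen in both libraries numbered 5 for Prkcb, 3 for Prkcz and 1 for each of the other 5 genes. The Prkcz chain that begins with the Prkcz-206 exon was the one unannotated chain of any member with at least 3 reads in each library.

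**Figure D4:**
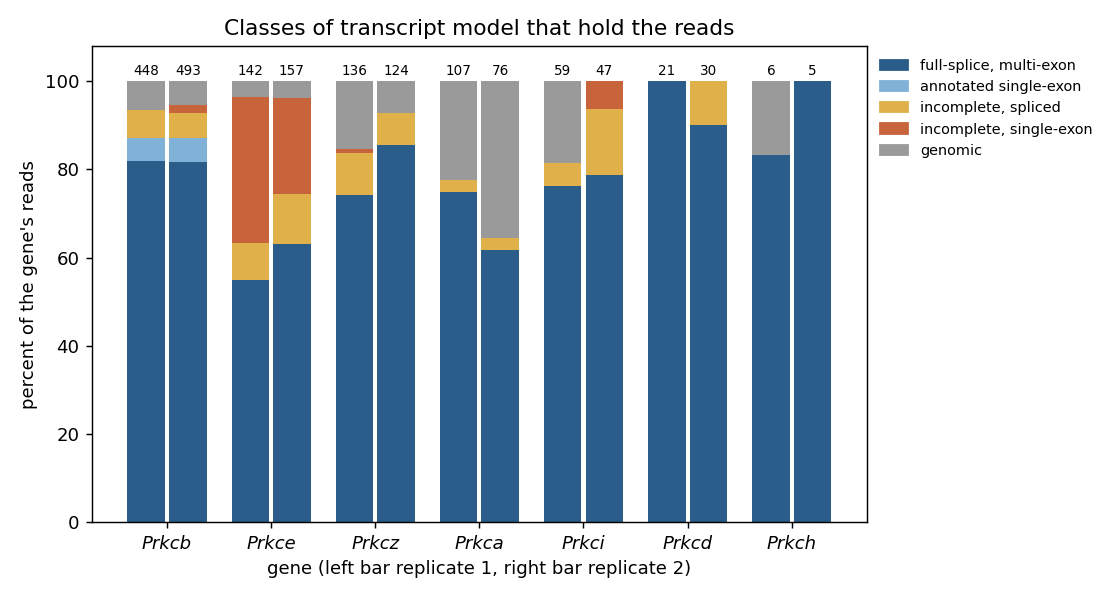
Percent of each gene's reads in 5 classes of transcript model, with replicate 1 on the left and replicate 2 on the right and the number of reads above each bar. Full-splice reads make up 54.9% and 63.1% for Prkce and 81.9% and 81.7% for Prkcb, and incomplete reads of 1 exon are a large class for Prkce.

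Upstream of PKC, phospholipase C makes diacylglycerol, and Gq-class G proteins activate some of its forms. Of 15 such genes 13 had reads in both libraries and 8 averaged at least 10 CPM, with a median of 19.5 CPM against 11.6 CPM over all 18497 genes. On full-splice reads only, taken over the reads of those models, the median of the list was 8.61 CPM. A median over all genes was not computed on that basis. Gna11, a Gq-class alpha subunit, led with 179 and 193 CPM. Plcg1, a phospholipase downstream of tyrosine kinases, had 83.5 and 65.7 CPM, Plcb1, a form that Gq activates, 60.5 and 77.8 CPM, and Plch2 56.9 and 65.7 CPM.

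Diacylglycerol kinases, which remove the lipid, all had reads in both libraries (9 of 9), and their median level was 43.0 CPM. Dgkz had 444 CPM in replicate 1 and 561 CPM in replicate 2. The next were Dgkg at 113 and 142 CPM, Dgkd at 103 and 111 CPM and Dgkb at 87.1 and 68.4 CPM.

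Proteins that hold, partner or prime PKC were all detected (17 of 17 in both libraries, median 33.03 CPM). Fez1, a protein of axon growth that binds PKC zeta, led with 544 and 594 CPM. Sqstm1, the p62 scaffold that binds atypical PKC, had 221 and 201.2 CPM. Wwc1, which encodes KIBRA, a protein that binds PKM-zeta, had 127 CPM in each library. Fez2, the paralog of Fez1, had 72.6 and 68.4 CPM.

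Known substrates had reads in both libraries for 15 of 15 genes, 7 of them at 100 CPM or above on average, with a median of 93.3 CPM. Nrgn, neurogranin, a postsynaptic calmodulin-binding protein, had 1757 and 1752 CPM. Marcksl1, a MARCKS-like actin regulator, had 229 and 274 CPM, and Basp1, a membrane protein of growth cones, 189 and 227 CPM.

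Other proteins with a C1 domain bind the same lipid. Of 9 such genes 8 had reads in both libraries, and the median level was 12.9 CPM. Chn1, chimaerin 1, a Rac-inactivating protein, had 1270 and 1391 CPM and Rasgrp1, a Ras activator, 410 and 487 CPM. Unc13a, the vesicle-priming protein Munc13-1, had 67.7 and 83.2 CPM, and Chn2 15.7 and 17.4 CPM. Over all 18497 genes, 79.9% had reads in both libraries, 52.8% reached 10 CPM and 10.4% reached 100 CPM. Of the 65 genes on these 5 lists, 46 had enough reads for the library test and 0 were called, against 0.309% of all genes tested.

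**Figure D5:**
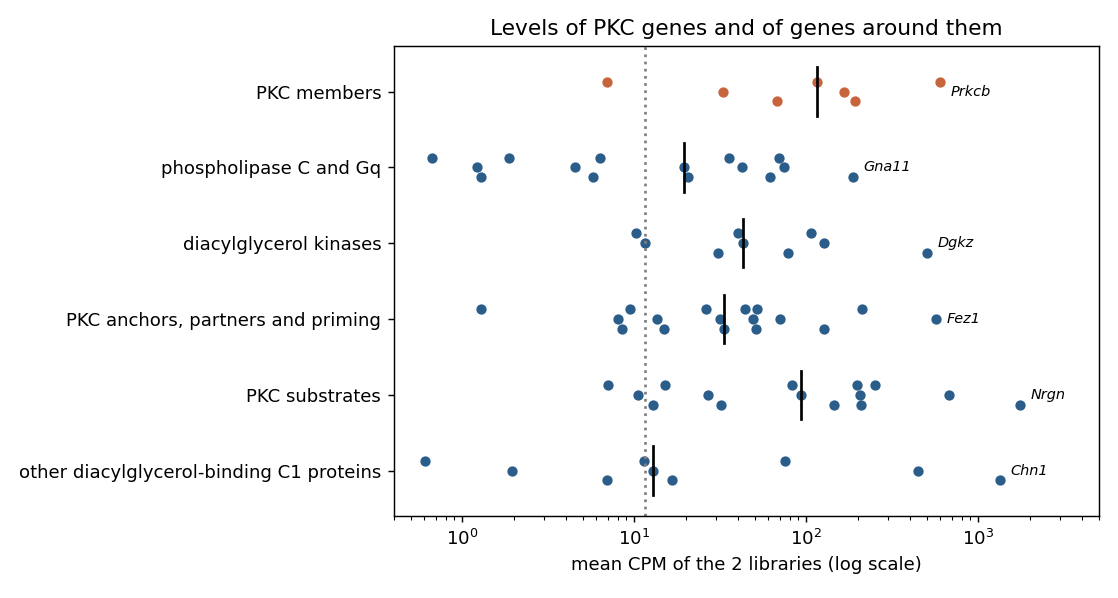
Mean CPM of the 2 libraries (log axis) for the 7 PKC genes and 5 lists of related genes, each point a gene, with a black bar at the list median, the leading gene named and a dotted line at the median of all annotated genes (11.6 CPM). The PKC median of 116 CPM and the substrate median of 93.3 CPM are the highest of the 6.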

How the data were processed

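The deposited values are counts, the whole number of reads on each transcript model, which the authors left unnormalized, listing models with at least 1 read. Model structures were made by the authors with TALON on mm10 with GENCODE M21, per the file headers and the text files deposited with them. The sources used here do not name the aligner, platform or versions. Model counts were summed per gene identifier and divided by the reads outside spike-ins. Isoforms were matched between libraries by their intron chains, since unannotated models are named per library. Shares used full-splice reads, with at least 20 in each library for a test. Library differences were tested with two-sided exact binomial tests on genes with at least 20 reads together (adjusted p under 0.05 and at least 2-fold) and isoform shares with Fisher's exact tests, adjusted by the Benjamini-Hochberg method over all genes. Both tests take reads as independent, which is not known without molecular identifiers, so intervals, limits (3 counts for a count of 0) and p-values cover counting error only. Counting of reads shared by near-identical or overlapping genes is not described. All 7 members are named, and of each list the 4 genes with the highest mean, plus any with no read. A gene that this rule takes is not reported here. Tcf7l2, Slc17a6, Synpo2 and Cd79a fall outside it and were chosen after their values were seen. Members, gene lists, tests and alternatives were chosen with earlier results of these data known. Isoforms are named at 10% or more in either library, and unannotated ones at 3 reads or more in each. Promoters came from RefSeq, 8 windows for 5 members. Python 3.11.15, pandas 2.3.3, numpy 2.4.6, scipy 1.17.1, R 4.3.3, edgeR 4.0.16 and DESeq2 1.42.0 were used.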

Additional observations from a re-analysis of the deposited data

Results flagged for a closer look

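Reads on the strand opposite to 3 members, in models assigned to no annotated gene, were not part of any comparison above and exceeded the 3 counts that a count of 0 allows. Opposite to Prkca there were 23 reads in replicate 1 and 23 in replicate 2, opposite to Prkcb 38 and 51, and opposite to Prkce 56 and 54. All of those opposite to Prkca and Prkcb, and 53 and 53 of those opposite to Prkce, were in single-exon models. Opposite to Prkcd, Prkch and Prkci there were at most 3 reads in a library, and opposite to Prkcz there were none outside the annotated gene Gm27200, which had 15 and 20 reads. Whether the strand of single-exon reads was assigned correctly was not tested.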

How the results depend on the processing

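Of 70 values recomputed with both libraries under other settings, 44 moved by less than 1 SD between the libraries or stayed on their side of the test. The other 26 moved further, and a change of direction was not scored. Leaving out either of 2 libraries moves a mean by a fixed part of its SD, so that alternative says nothing of stability and its values are those of the single libraries. A lower minimum of full-splice reads cannot change a share that already passed the higher one. The scaling factors between libraries (TMM, from edgeR) were 0.9997 and 1.0003, so levels could hardly move. Values of both kinds are among the 44. Counts of members called different between libraries, and of dominant shares called, were 0 under every setting run. Over all genes the library test called 28, against 52 with no fold limit and 14 with full-splice reads only. An SD over 2 libraries can be small, as for Prkcz, and a shift of more than 1 SD can then be slight.

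Without genomic models Prkca averaged 91.5 CPM and Prkcz 161 CPM, and over all reads including spike-ins Prkcz averaged 164 CPM. Counting full-splice models only, over the reads of those models, gave 802 CPM for Prkcb, 202.1 for Prkcz, 79.5 for Prkci, 47.1 for Prkcd and 9.75 for Prkch. With annotated full matches only, the dominant share was 100% for Prkca, 89.3% for Prkcb, 99.5% for Prkce, 100% for Prkci and 99.4% for Prkcz, and Prkcd had too few reads for a value. With incomplete matches in the denominator, the shares were 88.5% for Prkca, 80.4% for Prkcb, 59.5% for Prkce, 76.8% for Prkci and 76.5% for Prkcz.

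Internal starts took 99.4% of annotated reads. They took 86.4% of all multi-exon reads when the start of a model was counted within 100 bases of an annotated one. On that count 0 reads had a full-length start in either library. Beta II took 95.3% of annotated Prkcb reads. The phospholipase C and Gq median was 13.97 CPM when genomic models were left out. It was 8.61 CPM on full-splice reads alone, where diacylglycerol kinases had 60.8, anchors 36.8 and substrates 121 CPM. Leaving out each replicate in turn, an alternative chosen after seeing the data, gave medians of 16.1 to 18.1 CPM for phospholipase C and Gq, 47.2 to 52.3 for diacylglycerol kinases, 32.2 to 35.1 for anchors and 13.3 to 16.1 for other C1 proteins. Where classes were left out, levels are over the reads kept, and the cause of each shift was not tested. Leaving out a replicate leaves no library test. No paired analysis was possible because there is 1 group.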
